A study of Mus musculus with 12 samples.

Results

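Sialic acid-binding immunoglobulin-like lectins (Siglecs) and enzymes that shape their ligands were followed across 3 subsets of eosinophils from the mouse small intestine (SI). The 8 genes, *Cd22*, *Siglecf*, *Siglece*, *Siglecg*, *Siglec1*, *Cd33*, *St6gal1*, and *Cmah*, were chosen by symbol from a table of 36047 genes. RNA was sequenced from α4β7+, α4β7− CD22−, and CD22+ eosinophils in 4 libraries per subset, 12 in all. The study took these subsets, in this order, as roughly younger, intermediate, and older cells. All libraries came from the SI lamina propria of wild type female C57BL/6J mice on standard chow, with 2 mice pooled per library, and the labels name no treatment and no age. The shared sorting gate was live CD45+ CD11b+ SiglecF+ MHCII− Ly6G−, and the α4β7+ and α4β7− CD22− gates both held cells low in CD22 protein. CD22 protein therefore defined the CD22+ subset, so *Cd22* RNA checks the labels and no test of it is given, and SIGLEC-F protein was required of every cell.

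Siglecs are receptors that bind sialic acids, the sugars that cap glycans on cell surfaces. Most carry inhibitory motifs in their cytoplasmic tails that recruit the phosphatase SHP-1, encoded by *Ptpn6*. CD22 is best known as an inhibitory receptor of B cells and binds sialic acid in the linkage made by the sialyltransferase ST6GAL1. The hydroxylase CMAH makes the form of sialic acid that mouse CD22 prefers, and SIGLEC-F is a receptor by which mouse eosinophils are commonly identified.

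Of the 8 genes, 5 lie on chromosome 7 (GRCm38). *Siglecf* (43351341 to 43359531), *Siglecg* (43408204 to 43418358), *Cd33* (43524216 to 43544428), and *Siglece* (43651070 to 43660161) form a cluster that spans 309 kb, and *Cd22* (30865402 to 30880342) lies 12.5 Mb away from it. *Siglec1* is on chromosome 2 (131069220 to 131086765), *Cmah* on chromosome 13 (24327404 to 24477377), and *St6gal1* on chromosome 16 (23224740 to 23360350). RefSeq promoter sequences on GRCm38.p6 matched 7 of the 8 symbols. Sequence before a RefSeq start is shown for *Cd22* and *Cd33*, which were higher in the older subsets, for *Siglecg*, which was lower, and for *Siglecf*, which was not called changed. Each stretch was taken from the 250 bases before a RefSeq start, without bases annotated as exon, and is written 5′ to 3′ on the strand of the gene. For *Cd22* and *Cd33* this start lies inside the gene span given above. Sequence before the outermost annotated start of these genes was not searched. *Cd22* is chr7:30879029-30879176 on the minus strand, *Cd33* chr7:43533172-43533364 on the minus strand, *Siglecg* chr7:43407989-43408203 on the plus strand, and *Siglecf* chr7:43351091-43351340 on the plus strand.
Cd22: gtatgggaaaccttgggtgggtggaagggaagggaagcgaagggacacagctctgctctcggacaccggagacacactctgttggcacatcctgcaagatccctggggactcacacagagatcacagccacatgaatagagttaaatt
Cd33: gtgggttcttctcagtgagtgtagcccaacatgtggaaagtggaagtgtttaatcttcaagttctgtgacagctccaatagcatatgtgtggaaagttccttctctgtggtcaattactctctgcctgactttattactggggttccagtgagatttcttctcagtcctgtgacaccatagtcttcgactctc
Siglecg: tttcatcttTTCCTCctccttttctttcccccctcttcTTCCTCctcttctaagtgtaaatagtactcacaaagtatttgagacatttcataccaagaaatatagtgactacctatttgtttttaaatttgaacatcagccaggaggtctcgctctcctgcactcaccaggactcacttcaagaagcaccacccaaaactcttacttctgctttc
Siglecf: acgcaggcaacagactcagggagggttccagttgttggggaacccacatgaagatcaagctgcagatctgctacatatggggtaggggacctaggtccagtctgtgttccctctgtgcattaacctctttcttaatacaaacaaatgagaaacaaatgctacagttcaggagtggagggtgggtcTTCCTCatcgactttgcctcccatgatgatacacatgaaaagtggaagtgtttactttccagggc
Capitals mark matches to GAGGAA, a core of the sites of the myeloid factor PU.1, on either strand. The same stretches were searched on both strands for GATAA (GATA factors), AGGTCA (nuclear receptors), and GCGTG (the aryl hydrocarbon receptor). *Siglecg* held GAGGAA on the opposite strand at 241 and 212 bases before the start, and *Siglecf* held it once, at 65 bases. At the same positions, 20.0% and 23.3% of 32851 RefSeq promoters held this motif, so it was common. None of the other motifs occurred in any of the 4 stretches. The *Cd22* and *Cd33* stretches, which lie inside these genes, held none of the motifs searched. At the positions of the *Cd22* stretch, the motif of GATA factors occurred in 13.1% of all promoters, that of PU.1 in 14.3%, that of nuclear receptors in 8.44%, and that of the aryl hydrocarbon receptor in 20.3%.

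Summed over genes, a library held 15783607 to 16915755 normalized counts in α4β7+, 15011473 to 15740374 in α4β7− CD22−, and 14286474 to 14758267 in CD22+. These totals did not overlap between subsets, and 1 read was worth about 0.852 to 1.16 normalized counts. Between 19760 and 21960 genes were above 0, and log2 values of any 2 libraries correlated across genes at 0.963 to 0.982. The 11 eosinophil markers summed to 111907 to 124268, 94243 to 100973, and 82189 to 91514 normalized counts in the 3 subsets. *Ccr3* and *Alox15* were high (10103 to 28671 and 9917 to 33896), while the granule protein genes *Prg2* (69.2 to 407), *Epx* (58.7 to 173), and *Prg3* (12.1 to 45.7) were low. Of the 11, 5 were called lower in α4β7− CD22− and 8 lower and 1 higher in CD22+ relative to α4β7+ cells, where 4.35%, 6.39%, and 5.60% of all genes tested were called in those directions, and the part of this in the values below was not tested. *Igha* and *Jchain*, transcripts of plasma cells, were present in every library at 8282 to 28536 and 2305 to 7156. Epithelial markers summed to between 1266 and 7637, and did not separate the subsets. In bulk RNA, fewer cells that express a gene and less RNA per cell cannot be told apart.

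*Cd22* RNA followed the sort. Its normalized counts were 1108, 1364, 987, and 1000 in the α4β7+ libraries, 4089, 4247, 3693, and 5819 in the α4β7− CD22− libraries, and 14766, 12440, 11553, and 14576 in the CD22+ libraries. The 3 subsets did not overlap, and the intermediate subset lay between the others although it was sorted as low in CD22 protein. Means were 1115 ± 175, 4462 ± 934, and 13334 ± 1588 (SD, n = 4), that is 4.00-fold and 12.0-fold above α4β7+. Because CD22 is also a receptor of B cells, B cell markers were read beside it. Without *Ighm*, which took up 87.6% of the summed level, the other 11 markers summed to between 197 and 494 normalized counts in the α4β7+ libraries, between 171 and 413 in α4β7− CD22−, and between 252 and 472 in CD22+ libraries. Mean *Cd22* was 3.86, 17.5, and 40.2 times the summed level of those 11 markers in the 3 subsets. *Ighm* itself ranged from 1632 to 2305 over all libraries. Part of the *Cd22* transcript, 18.0%, matched transcripts of 63 other genes at 90% identity or more, so the reads of that part could have been split between genes.

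**Figure D1:**
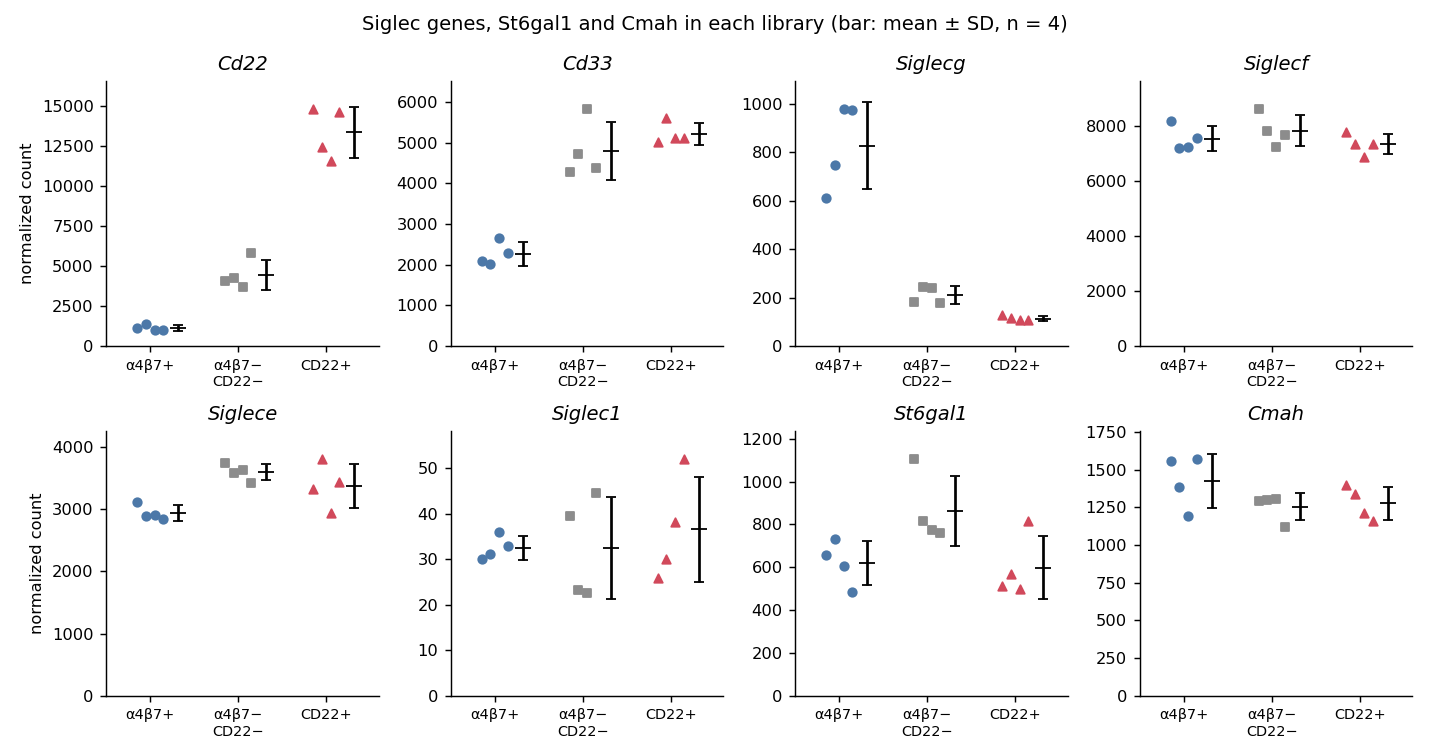
Normalized counts (vertical axes, each from 0) of the 8 genes in the 4 libraries of each subset (points), with the mean ± SD beside them. *Cd22* and *Cd33* were higher and *Siglecg* was lower in both α4β7− CD22− and CD22+ eosinophils than in α4β7+ eosinophils, without overlap, while the *Siglecf* libraries of all subsets lay between 6884 and 8594.

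*Cd33*, which encodes a Siglec of myeloid cells, was higher in the α4β7− CD22− and CD22+ subsets, the later subsets, than in α4β7+ cells. Its normalized counts were 2077, 2008, 2658, and 2291 in the α4β7+ libraries, 4266, 4725, 5814, and 4384 in α4β7− CD22− libraries, and 5008, 5598, 5122, and 5116 in CD22+ libraries. Every library of the α4β7− CD22− and CD22+ subsets was above every α4β7+ library, and the α4β7− CD22− and CD22+ subsets overlapped each other. In α4β7− CD22− relative to α4β7+ cells *Cd33* rose by 1.08 ± 0.104 (SE) on the log2 scale, or 2.12-fold, at an adjusted p of 5.98e-06 (limma, Benjamini-Hochberg over 15249 genes). In CD22+ relative to α4β7+ cells it rose 2.32-fold, at an adjusted p of 8.48e-07 (limma). Between CD22+ and α4β7− CD22− cells the log2 difference was 0.13 (95% CI, −0.09 to 0.35; adjusted p = 0.796, limma), so a rise of the first size lay outside the interval. The level of *Cd33* in the intermediate subset exceeded the mean of both others by 0.48 on the log2 scale (adjusted p = 0.0175, limma, a contrast chosen after the data were seen), short of the 1.5-fold threshold. Beside *Cd33*, 1 of 11 macrophage markers tested, *Cd68*, was called higher in both subsets than in α4β7+ cells, where 3.70% and 5.60% of all genes tested were called higher. The summed macrophage markers were 19416 to 21055, 18463 to 20914, and 16593 to 18907 in the 3 subsets, with 82.9% of the sum in *Adgre1*. Of the 11, 4 had their highest mean in α4β7+ cells, among them *Csf1r* (1905, 1578, and 1593), and 7 in CD22+ cells, among them *Cd68* (335, 640, and 753) and *Mrc1* (64.9, 55.3, and 98.1), and no member but *Cd68* was called. Their part in the *Cd33* values was not tested.

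*Siglecg* moved the other way. SIGLEC-G is an inhibitory Siglec best known from B cells and dendritic cells. Its normalized counts were 613, 750, 978, and 974 in α4β7+ libraries, 183, 243, 240, and 177 in α4β7− CD22− libraries, and 126, 114, 106, and 106 in CD22+ libraries. The subsets did not overlap, and each library of a later subset was below every library of an earlier one. Relative to α4β7+ cells, *Siglecg* fell by 1.96 ± 0.167 (SE) on the log2 scale in α4β7− CD22− cells, or 3.88-fold, and by 2.84 in CD22+ cells, or 7.16-fold (adjusted p = 2.02e-06 and 1.71e-08, limma). From α4β7− CD22− to CD22+ cells it fell by 0.88, or 1.84-fold, at an adjusted p of 0.0205, or 0.0328 with replicate numbers as a block (limma). This last call was lost without replicate 2 or 3 of the α4β7− CD22− subset or replicate 3 or 4 of the CD22+ subset, at adjusted p values between 0.0538 and 0.0761 (limma), and without the variance trend, at 0.0635. The B cell markers given beside *Cd22* had no member called in any comparison, nor one at an unadjusted p under 0.05 (limma). Dendritic cell markers summed to 3544 to 5769, 3739 to 6356, and 3634 to 8731 in the 3 subsets, with 49.0% of the sum in *Cd74*. Of 11 tested, 5 had their highest mean in α4β7+ cells and 6 in CD22+ cells. Of these 11, 1 was called lower in α4β7− CD22− than in α4β7+ cells (4.35% of all genes tested), and none otherwise. Neutrophil markers summed to 15156 to 22892, 7353 to 9383, and 4750 to 5166 in the 3 subsets and were lower where *Siglecg* was lower, with 86.8% of the sum in *Retnlg*, which was called lower in all 3 comparisons. Of the 6 neutrophil markers tested, *Ngp* (means 31.6, 106, and 143) and *Cxcr2* (780, 1338, and 1772) were instead called higher in both later subsets than in α4β7+ cells, and *S100a9* and *Mmp8* were called lower in CD22+ than in α4β7+ cells. Over all genes tested, 3.70% and 5.60% were called higher in α4β7− CD22− and CD22+ than in α4β7+ cells, and 4.35% and 6.39% lower. The part of the dendritic cell and neutrophil markers in the *Siglecg* values was not tested. *S100a8* and *Camp* were at or under 3 reads in every library, *Ly6g* reached 10.8 normalized counts, and *S100a9*, *Ltf*, and *Mmp8* reached 43.1, 43.0, and 53.4.

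Since *Cd22* and *Siglecg* each separated the subsets, in opposite directions, their ratio could not overlap and is given as a description. The ratio of *Cd22* to *Siglecg* normalized counts was 1.01 to 1.82 in α4β7+ libraries, 15.4 to 32.8 in α4β7− CD22− libraries, and 109.1 to 137.5 in CD22+ libraries. Over the 12 libraries log2 values of the 2 genes correlated at r = −0.97, and at −0.45 once subset means were removed, so most of the relation lay between subsets. *Cd22* and *Cd33* correlated at 0.88 over all libraries and at −0.64 within subsets. The libraries share their subset and scaling, and no p was given.

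*Siglecf*, *Siglece*, and *Siglec1* were not called in any comparison. *Siglecf* measured 8165, 7209, 7217, and 7543 normalized counts in the α4β7+ libraries, 8594, 7800, 7236, and 7678 in α4β7− CD22−, and 7789, 7330, 6884, and 7356 in CD22+ libraries. All 3 subsets overlapped, and the 95% CIs of the 3 log2 differences ran from −0.24 at the lowest to 0.20 at the highest. A change of 1.5-fold in either direction lay outside each of these intervals, for a gene whose protein every sorted cell had to carry. *Siglece*, which encodes a Siglec of neutrophils and other myeloid cells, measured 3121, 2888, 2909, and 2843 in α4β7+, 3742, 3577, 3634, and 3427 in α4β7− CD22−, and 3322, 3807, 2948, and 3432 in CD22+ libraries. The α4β7− CD22− libraries were all above the α4β7+ libraries, by 0.29 ± 0.076 (SE) on the log2 scale (adjusted p = 0.0184, limma), which is 1.22-fold and short of the 1.5-fold threshold. *Siglece* in CD22+ libraries overlapped both other subsets, with log2 differences of 0.19 from α4β7+ (adjusted p = 0.0880, limma) and −0.10 from α4β7− CD22− (adjusted p = 0.791, limma).

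*Siglec1*, the large sialic acid receptor of macrophages also called sialoadhesin, was the least expressed of the 8 genes. Its normalized counts were 30.0, 31.1, 36.0, and 32.9 in α4β7+, 39.5, 23.2, 22.5, and 44.6 in α4β7− CD22−, and 25.8, 30.0, 38.2, and 51.9 in CD22+ libraries. The subsets overlapped, and with about 0.31 log2 units of SE the intervals reached from −0.73 to 0.85, so differences inside these intervals could not be told from none. The CV within subsets was 8.01%, 34.7%, and 31.6%.

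The enzymes *St6gal1* and *Cmah* did not pass the test. *St6gal1*, whose product adds the sialic acid that CD22 binds, measured 656, 734, 604, and 484 normalized counts in the α4β7+ libraries, 1105, 815, 772, and 758 in α4β7− CD22−, and 511, 567, 498, and 817 in CD22+ libraries. The α4β7− CD22− libraries were all above the α4β7+ libraries and overlapped the CD22+ libraries, in which replicate 4 stood at the level of the intermediate subset. The log2 difference was 0.48 ± 0.172 (SE) between α4β7− CD22− and α4β7+ cells (adjusted p = 0.0822, limma), −0.06 between CD22+ and α4β7+ cells, and −0.54 between CD22+ and α4β7− CD22− cells (adjusted p = 0.226, limma). *Cmah* measured 1555, 1386, 1191, and 1570 in α4β7+, 1290, 1300, 1308, and 1119 in α4β7− CD22−, and 1397, 1341, 1211, and 1162 in CD22+ libraries. Its subsets overlapped and its log2 differences lay between −0.18 and 0.03, with an outermost limit of the 95% CIs at −0.39. Of the *Cmah* transcript, 51.7% matched transcripts of other genes at 90% identity or more, so its level is less certain than that of *St6gal1*, with 4.53%.

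Leaving out *Cd22*, 2 of 7 genes were called between α4β7− CD22− and α4β7+ cells, 1 higher and 1 lower, where 8.05% of the 15249 genes tested were called (3.70% higher and 4.35% lower). The same numbers were called between CD22+ and α4β7+ cells, against 12.0% of all genes tested (5.60% higher and 6.39% lower). Between CD22+ and α4β7− CD22− cells 1 of 7 was called, lower, against 0.603% of all genes tested (0.210% higher and 0.393% lower). The subsets did not overlap for 4, 2, and 1 of the 7 genes, against 18.8%, 22.9%, and 6.37% of all genes. The median log2 difference of the 7 genes was 0.05, −0.04, and −0.09, beside 0.00, 0.01, and 0.00 over all genes tested, so the genes did not share a direction. With 4 libraries against 4, an exact permutation test (two-sided, 70 assignments) cannot go below p = 0.0286, and over the 21 tests run no adjusted p was under 0.0857.

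**Figure D2:**
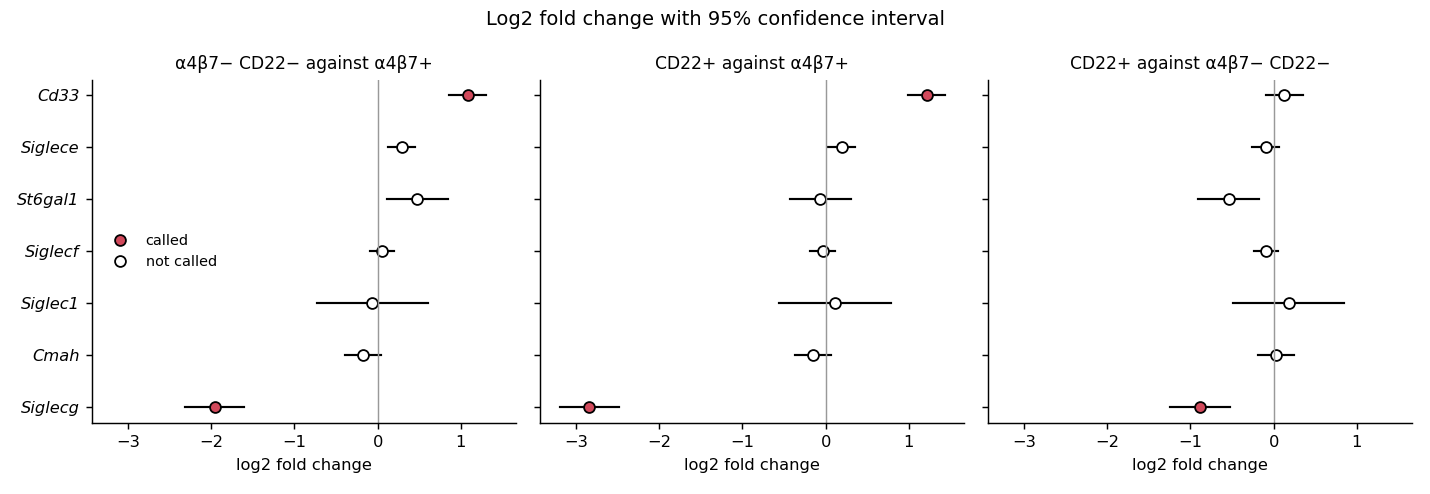
Log2 fold change (horizontal axes) of 7 of the genes in the 3 comparisons, with the 95% confidence interval as a line and called genes filled. *Siglecg* lay below 0 in all 3 comparisons (−1.96, −2.84, and −0.88), *Cd33* lay above 0 in both comparisons with α4β7+ cells (1.08 and 1.21), and the other genes were not called.

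Per kb of transcript, which allows levels of different genes to be set side by side, the order of the genes changed from subset to subset. In α4β7+ cells *Siglecf* (mean 2890 normalized counts per kb of the longest coding transcript) was above *Siglece* (1590), and both were above *Cd33* (394), *Siglecg* (323), and *Cd22* (281), whose neighbouring ranges overlapped. *Cmah* (146) and *St6gal1* (137) followed and overlapped each other, and *Siglec1* (5.09) was lowest. In α4β7− CD22− cells *Cd22* (1123) and *Cd33* (837) overlapped below *Siglecf* and *Siglece*, and *Siglecg* (82.1) stood below *St6gal1* (191) and *Cmah* (128). In CD22+ cells *Cd22* (3355) and *Siglecf* (2815) overlapped at the top, followed by *Siglece* (1826), *Cd33* (910), *St6gal1* (133), *Cmah* (131), and *Siglecg* (44.0), of which only *St6gal1* and *Cmah* overlapped. This order depended on the length used. The median coding transcript of *Cd33* is 1877 bases where its longest is 5728, and with median lengths *Cd33* stood at 2777 per kb in CD22+ cells, overlapping *Siglecf* and *Siglece*. With median lengths *Cd33* (2273 to 3098 per kb) was above *Cd22* (1076 to 1696) in α4β7− CD22− cells, and *Cd22* (3367 to 4303) was above *Siglecf* (2955 to 3344) in CD22+ cells, in both cases without overlap. *Cd33* was also above *Cd22* and *Siglecg* without overlap in α4β7+ cells with median lengths, and *Siglecg* overlapped *Cmah* there with merged exons or median lengths.

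*Siglecf* made up 52.7% ± 1.70 of the summed level per kb of the 6 Siglec genes in α4β7+ cells, 42.9% ± 2.27 in α4β7− CD22− cells, and 31.5% ± 0.960 in CD22+ cells (SD, n = 4). *Cd22* made up 5.13% ± 0.897, 16.0% ± 3.14, and 37.4% ± 2.44 of it. *Siglecg* went from 5.90% ± 1.34 to 1.18% ± 0.226 and 0.492% ± 0.0341. The sum itself grew from 5482 ± 162 normalized counts per kb to 6994 ± 177 and 8957 ± 605, and without *Cd22* it was 5202 ± 185, 5871 ± 207, and 5601 ± 306. The share of *Siglecf* went down while its level overlapped between subsets. With median lengths the *Siglecf* share was 43.7%, 33.2%, and 25.2%, and the *Cd22* share was 3.85% to 5.58%, 10.5% to 16.8%, and 28.3% to 33.1%. With merged exons both stood at 33.8% in CD22+ cells, and the *Siglecg* share was 3.48%, 0.699%, and 0.302%.

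**Figure D3:**
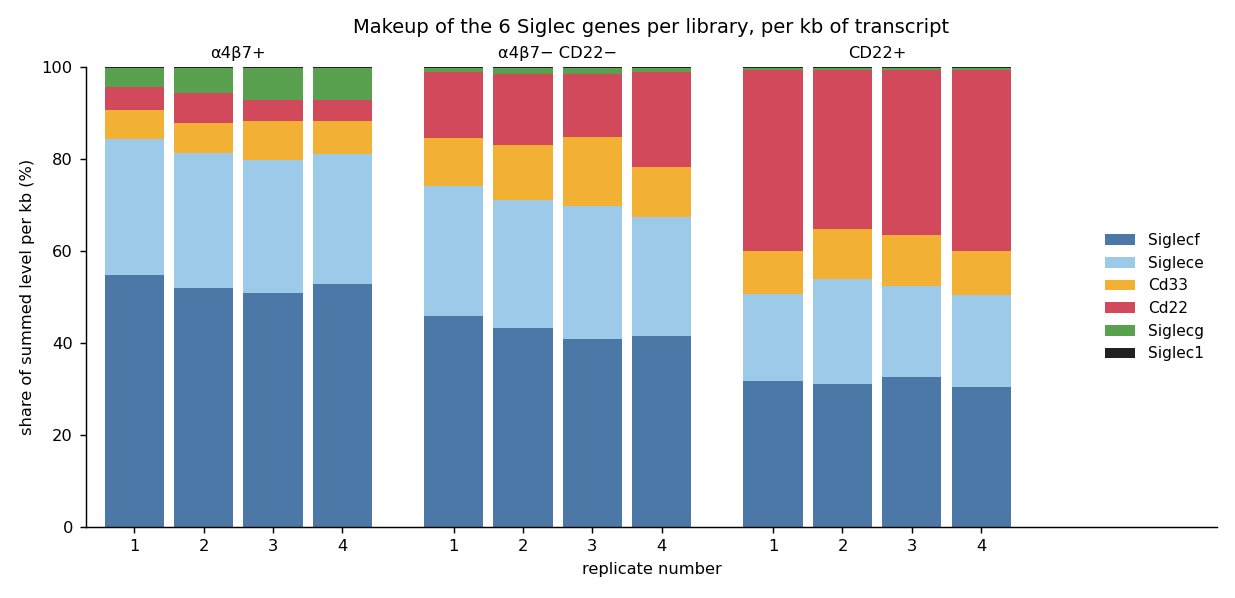
Share (vertical axis, %) of each of the 6 Siglec genes in their summed normalized counts per kb of the longest coding transcript, in the 12 libraries (bars, by replicate number within each subset). *Cd22* made up 4.56% to 6.46% of the sum in α4β7+ libraries and 34.7% to 39.5% in CD22+ libraries, and *Siglecg* shrank to under 1% in the latter.

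Genes around the Siglecs were read from 7 lists of sialic acid and Siglec pathway genes, 78 in all, of which 67 were tested. Between α4β7− CD22− and α4β7+ cells 2 were called higher and 4 lower, and between CD22+ and α4β7+ cells 2 were called higher and 8 lower. These are 6 and 10 of 67, to be read against the 8.05% and 12.0% of all genes tested that were called. Leaving out 1 library at a time gave 5 to 10 genes in place of the 6, with 10 without replicate 2 of α4β7+ or replicate 3 of α4β7− CD22−. Between CD22+ and α4β7− CD22− cells none of the 67 was called by limma, where 0.603% of all genes tested were called. Of the 67, 12 had an unadjusted p under 0.05 (limma), for which the share over all genes is not given here. The median log2 difference over the 67 genes was −0.07, −0.09, and −0.03.

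Sialyltransferases, the enzymes that attach sialic acid, had members called in each direction, 3 and 4 of 16 in the comparisons with α4β7+ cells (8.05% and 12.0% over all genes tested). Of the 16, *St8sia4* and *St6galnac5* were higher and *St3gal4* was lower in both later subsets than in α4β7+ cells, and *St3gal5* was lower in CD22+ cells. *St8sia4*, a polysialyltransferase, measured 5246, 4251, 3683, and 3323 normalized counts in the α4β7+ libraries, 6420, 5911, 6471, and 6966 in α4β7− CD22−, and 7696, 7709, 7726, and 7983 in CD22+ libraries. No 2 subsets overlapped for *St8sia4*, and it rose by 0.66 and 0.94 on the log2 scale over α4β7+ cells (adjusted p = 0.000751 and 1.83e-05, limma), while the step of 0.27 between the later subsets was not called (adjusted p = 0.384, limma). The first of these calls was lost without replicate 4 of the α4β7+ subset, where the difference was 0.57. *St6galnac5*, which sialylates gangliosides, averaged 448 ± 67.9, 842 ± 110, and 945 ± 185 normalized counts (SD, n = 4), and rose by 0.91 and 1.07 on the log2 scale. *St3gal4*, whose product caps glycans with sialic acid in another linkage than ST6GAL1, measured 1106, 1164, 1716, and 1472 in α4β7+, 729, 567, 1008, and 685 in α4β7− CD22−, and 470, 523, 982, and 670 in CD22+ libraries. It fell by 0.88 and 1.08 on the log2 scale (adjusted p = 0.0149 and 0.00251, limma), the first call being lost without replicate 2 of the α4β7− CD22− subset, and it was highest in replicate 3 of each subset. Summed epithelial markers were 5863, 4604, and 7637 in these 3 libraries, at or near the top of their subsets, and their part in the *St3gal4* values was not tested. *St3gal5*, which makes the ganglioside GM3, averaged 157 ± 56.6, 87.2 ± 33.0, and 57.5 ± 8.74 (SD, n = 4), and fell by 1.37 on the log2 scale in CD22+ relative to α4β7+ cells (adjusted p = 0.00487, limma).

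Of 9 glycoproteins that carry sialic acid or pair with Siglecs, 3 were lower in both later subsets than in α4β7+ cells and none was called higher, against 4.35% and 6.39% of all genes tested that were called lower. *Spn*, which encodes the heavily sialylated mucin CD43, measured 1480, 1354, 1310, and 1507 in α4β7+, 494, 617, 621, and 512 in α4β7− CD22−, and 558, 596, 548, and 605 in CD22+ libraries, and both later subsets were below α4β7+ and overlapped each other. It fell by 1.34 and 1.29 on the log2 scale, or 2.53-fold and 2.45-fold (adjusted p = 4.74e-07 and 2.00e-07, limma). *Cd24a*, which encodes a ligand of SIGLEC-G, averaged 18432 ± 614, 9855 ± 581, and 8358 ± 488 normalized counts (SD, n = 4), and fell by 0.90 and 1.14 on the log2 scale (adjusted p = 3.62e-07 and 9.55e-09, limma). *Siglecg* and *Cd24a*, a receptor and a ligand of it, were both lower in the later subsets. *Icam1*, an adhesion molecule, averaged 4633 ± 320, 2959 ± 206, and 2504 ± 162, and fell by 0.65 and 0.89.

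Of 16 genes of Siglec signalling, 0 and 1 were called in the comparisons with α4β7+ cells, against 8.05% and 12.0% of all genes tested. *Cblb*, a ubiquitin ligase, fell by 0.65 on the log2 scale in CD22+ relative to α4β7+ cells, from 993 ± 92.1 to 630 ± 24.0 normalized counts (SD, n = 4; adjusted p = 0.000271, limma). *Ptpn6*, which encodes SHP-1, averaged 10896, 10564, and 9497 normalized counts in the 3 subsets, and *Lyn*, the kinase that phosphorylates the CD22 tail, averaged 8799, 9291, and 8720. Neither was called in any comparison, and both were expressed at high levels throughout. Of 11 tested enzymes that build the glycans carrying sialic acid, *Gcnt1* fell by 0.71 and *Fut4* by 0.61 on the log2 scale in CD22+ relative to α4β7+ cells (adjusted p = 3.63e-05 and 0.000159, limma), where 6.39% of all genes tested were called lower. The *Fut4* call was lost under both other scalings and without replicate 1 of the α4β7+ or replicate 3 of the CD22+ subset, with a difference of at least 0.40 in size. Among 8 genes of sialic acid supply and 5 of its removal or modification none was called by limma in the 3 comparisons, with 1, 2, and 1 and 2, 3, and 0 genes at an unadjusted p under 0.05. In the comparisons with α4β7+ cells, 1 and 2 genes of supply and 1 and 3 of removal or modification had an adjusted p of at most 0.05 short of the 1.5-fold threshold, where 14.9% and 21.1% of all genes tested had such an adjusted p at any fold. Among them *Neu1*, which encodes a lysosomal sialidase, was lower by 1.47-fold and 1.46-fold without overlap (adjusted p = 0.00974 and 0.00733, limma). Of the other Siglec genes, *Mag*, a Siglec of myelin that neighbours *Cd22*, measured 348 to 616 normalized counts and *Siglech* 10.5 to 57.3, neither was called, and *Siglec15* was listed at 0 in all 12 libraries.

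**Figure D4:**
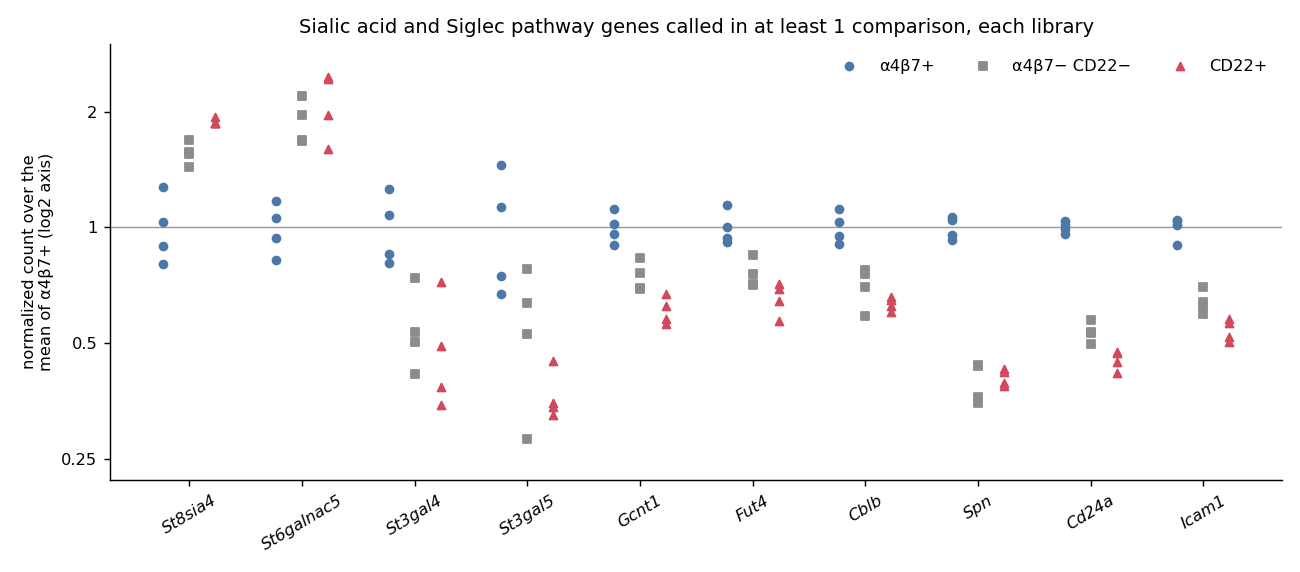
Normalized counts of the 10 pathway genes called in at least 1 comparison, each library (points, 4 per subset) divided by the mean of the α4β7+ libraries (vertical axis, log2 scale). *St8sia4* and *St6galnac5* lay above the α4β7+ libraries in both later subsets, and in CD22+ cells the other 8 genes lay below them.

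Of 24 other tested genes within 100 kb of one of the 8, 2 were called higher and 1 lower in α4β7− CD22−, and 2 higher and 2 lower in CD22+ cells, relative to α4β7+ cells, beside 8.05% and 12.0% of all genes tested. Both that were higher lie beside *Cd22* and encode receptors of fatty acids. *Ffar1*, 3838 bases from *Cd22* on the same strand, averaged 64.7, 215, and 780 normalized counts in the 3 subsets, and was called higher in each comparison, by 1.72, 3.57, and 1.85 on the log2 scale (adjusted p = 8.15e-06, 2.54e-09, and 5.12e-05, limma). *Ffar2*, 41627 bases away, averaged 2233, 3822, and 3803 and rose by 0.77 in both later subsets relative to α4β7+ cells. *Mag*, 18834 bases from *Cd22*, and *Usf2*, 64906 bases away, were not called. Around the cluster on chromosome 7, *Etfb* was lower in CD22+ and *Nkg7* lower in α4β7− CD22− than in α4β7+ cells, and *Zfp819* was lower in CD22+ cells. *Nkg7*, a gene of cytotoxic lymphocytes, averaged 56.8, 18.5, and 36.4 normalized counts. Of 7 T cell markers tested, 3 were called lower in the same comparison, *Cd3e* (157, 69.8, and 132), *Cd8a* (164, 81.4, and 169), and *Lck* (130, 69.4, and 103), where 4.35% of all genes tested were called lower. The list summed to 971 to 1634, 601 to 929, and 975 to 1381, with 34.5% in *Cd3d* (337, 361, and 365), which was not called. Their part in the *Nkg7* values was not tested.

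Likeness over the 12 libraries was measured by Pearson r of log2 values among 9465 genes with an average normalized count of at least 100. The genes most like *Cd22* were *Jaml* (r = 0.994), *Hnrnpll* (0.988), and its neighbour *Ffar1* (0.987), and for *Cd33* they were *Notch4* (0.989), *Stat2* (0.981), and *Klhl18* (0.972). *Jaml*, an adhesion receptor of leukocytes, averaged 228, 547, and 1341 normalized counts in the 3 subsets, and *Notch4* averaged 317, 1652, and 2460. For *Siglecg* they were the processed pseudogene ENSMUSG00000092278 (0.989), *Gimap6* (0.988), and *Rcn1* (0.984). For *Siglecf* they were *Limd1* (0.879), *Ralb* (0.869), and *Phc1* (0.857), and for *Siglece* *Cnot6l* (0.930), *Sgpp1* (0.928), and *Cd80* (0.927), the last encoding a costimulatory ligand of T cells. For *Siglec1* they included *Casp1* (0.843) and *Hacd3* (0.827), for *St6gal1* *Acd* (0.890), *Ftl1* (0.840), and *Mfsd12* (0.835), and for *Cmah* *Usp47* (0.905), *Copb1* (0.898), and *Atg9a* (0.875). Once subset means were removed, r to the most alike gene was 0.837 for *Cd22*, 0.869 for *Cd33*, 0.799 for *Siglecg*, and 0.881 for *Siglecf*, while for *Cd22* it was 0.316 with *Hnrnpll* and 0.487 with *Ffar1*. These values describe 12 libraries that share their subset and scaling, and the genes were picked as the highest among 9465.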

How the data were processed

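The authors trimmed paired reads with Trimmomatic 0.39, pseudoaligned them to mm10 with kallisto 0.46.1, and normalized the counts with DESeq2 1.38.2, per the labels and methods. The file they deposited holds this signal, normalized counts of 36047 genes. The values are not whole, and whole reads could not be recovered, so tests for counts were not run. Libraries were made with a stranded total RNA kit from 3 ng of RNA. No column was left unmatched to a library.

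Tests were made with limma (version 3.58.1, R version 4.3.3) on log2(normalized count + 1) for the 15249 genes that averaged over 10. The model held all 12 libraries and a variance trend, and p was adjusted by Benjamini-Hochberg. A called gene had an adjusted p no higher than 0.05 and changed by 1.5-fold or more. Log2 fold changes on this scale understate changes of low genes. On data simulated for CD22+ against α4β7+ with 15249 genes, 65% of genes changed by 1 log2 unit, 88% of those changed by 2, and 6 of 15049 unchanged genes were called.

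The 8 genes and all lists were chosen with earlier results of these data known. Named genes are the 8, list genes called in at least 1 comparison (at most 4 per list), called neighbours within 100 kb, and for each of the 8 the 3 genes with the highest r, of which 1 is not reported here. Other genes, such as *Ptpn6* and *Lyn*, were named for their role after their values were seen. Identifiers were matched to GENCODE M21 (35968 of 36047), and shared transcript sequence was found with BLAST 2.17.0 (90% identity over 100 bases). Exact permutation tests used scipy 1.17.1.

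Each library came from 2 pooled mice, and p-values measure the spread between libraries. Whether equal replicate numbers mark the same mice is not given in the sources used here. Deviations from the subset means correlated between equal numbers at 0.135 to 0.203 for α4β7− CD22− and CD22+ (mean −0.0563 between unequal numbers). For α4β7+ they correlated at 0.0430 to 0.137 with α4β7− CD22− (−0.0291 unequal) and −0.0586 to 0.182 with CD22+ (−0.0112 unequal). All 4 α4β7− CD22− libraries were closest to their own number in CD22+. Of the α4β7+ libraries, 4 and 2 were closest to their own number in α4β7− CD22− and CD22+. The main model left this possible pairing out, and the replicate block was run as an alternative. The alternatives were pseudocounts of 0.1 and 10, no filter and a filter at 50, 2 other scalings, no variance trend, the adjusted p alone, only the subsets compared, the replicate block, other transcript lengths, and each library left out in turn.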

Additional observations from a re-analysis of the deposited data

Results flagged for a closer look

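In 3 of the 54 sets of 4 libraries examined, over 18 genes, the highest or lowest library stood apart from the other 3. *St6gal1* was at 1105 normalized counts in replicate 1 of the α4β7− CD22− subset, above the 758 to 815 of the others. *Cmah* was at 1119 in replicate 4 of that subset, below the 1290 to 1308 of the others. *St8sia4* was at 7983 in replicate 4 of the CD22+ subset, above the 7696 to 7726 of the others. Chance alone sets a library apart in about 5% of such sets, which is close to what was found, and the causes were not tested.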

How the results depend on the processing

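With the call rule kept (adjusted p and fold together), 420 of 438 values of the 7 genes other than *Cd22* kept their direction and their call or lack of one over the other alternatives. Of the others, 5 were of *Siglecg* between CD22+ and α4β7− CD22− cells, with differences of −0.96 to −0.81 on the log2 scale over all settings. The other 13 were small differences that were not called and changed sign, of *Siglecf*, *Siglec1*, *St6gal1*, and *Cmah*. Under quantile normalization *Siglecf* differed by 0.12 and 0.0072 in CD22+ relative to α4β7+ and α4β7− CD22− cells, and *Siglec1* by 0.010 in α4β7− CD22− relative to α4β7+ cells. Without 1 library each, the differences from α4β7+ to CD22+ cells ran from −0.066 to 0.0022 for *Siglecf*, from −0.22 to 0.023 for *St6gal1*, and from −0.066 to 0.26 for *Siglec1*. They ran from −0.23 to 0.087 for *Siglec1* between α4β7− CD22− and α4β7+ cells, and between CD22+ and α4β7− CD22− cells from −0.0038 to 0.35 for *Siglec1* and from −0.028 to 0.070 for *Cmah*. The adjusted p, without the fold threshold, crossed 0.05 for *Siglece* in both comparisons with α4β7+ cells (0.00440 to 0.0593 for α4β7− CD22− and 0.00565 to 0.253 for CD22+, limma) and for *St6gal1* between α4β7− CD22− and α4β7+ cells (0.0400 to 0.226, limma). With the adjusted p alone, 2265, 3223, and 164 genes were called in place of 1228, 1829, and 92, and 17 and 22 pathway genes in place of 6 and 10 in the comparisons with α4β7+ cells. Of the 7 genes, 3 were called in place of 2 between α4β7− CD22− and α4β7+ cells, the added one being *Siglece* (0.0184, limma). Without the variance trend, 54 genes in all and 0 of the 7 other than *Cd22* were called between CD22+ and α4β7− CD22− cells. Without 1 library each, 1116 to 1227, 1656 to 1825, and 64 to 93 genes were called, of the 7 genes 2 to 2, 2 to 2, and 0 to 1, and of the pathway genes 5 to 10, 10 to 13, and 0 to 0. With the replicate block, 1254, 1843, and 100 genes were called, of which 1181, 1766, and 88 were shared with the model without it, and the pairing changed no call of the 7 genes. *Siglecg* kept an adjusted p of 0.0328 (limma) between CD22+ and α4β7− CD22− cells under the block. Levels per kb moved with the transcript length used, for *Cd33* in CD22+ cells from 910 to 671 with merged exons and to 2777 with the median coding transcript. *Siglec1* had the fewest reads behind its values (22.5 to 51.9 normalized counts), and whether depth set its spread was not tested.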
